A study of Mus musculus with 12 samples.

Results

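The mRNA of 10 genes of the integrated stress response was followed in pressure-overloaded and sham-operated mouse hearts: *Atf4*, *Ddit3*, *Trib3*, *Asns*, *Chac1*, *Fgf21*, *Gdf15*, *Phgdh*, *Psat1* and *Mthfd2*. They were picked by gene symbol from the 19308 genes of the deposited count table, by a rule that uses no measured value, although earlier results of these data were known when the genes were listed. All 10 were in the table, and 9 were counted highly enough to be tested, among 14094 such genes. *Fgf21* was not.

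The study compared C57BL/6 wild-type (WT) hearts with hearts of mice in which *Fabp3*, the gene of a fatty acid-binding protein of heart muscle, was knocked out in the whole body with CRISPR-Cas9 (Fabp3-null, F3-KO). Mice were operated at 8 weeks of age. In transverse aortic constriction (TAC) a suture narrows the aortic arch, so that the left ventricle pumps against raised pressure, and controls had a sham operation. Hearts were taken 1 week after surgery, 3 in each of the 4 groups: WT sham, F3-KO sham, WT TAC and F3-KO TAC. The knockout is global, so cells other than heart muscle lack the intact gene too. RNA came from heart tissue as a whole, so a change in the number of cells of a type and a change in RNA per cell cannot be told apart.

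In the integrated stress response, kinases that sense amino acid shortage, viral RNA, haem shortage or misfolded protein phosphorylate the translation factor eIF2, which lowers protein synthesis overall while letting the transcription factor ATF4 be translated. Stress inside mitochondria can enter the same route through the protein DELE1. ATF4 then switches on genes of amino acid uptake, serine and one-carbon metabolism and redox defence, together with the secreted hormones GDF15 and FGF21, and in heart and skeletal muscle this programme is a known companion of mitochondrial disease. Because ATF4 is controlled largely through translation, its own mRNA need not move when it is active.

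ATF4 binds many of its targets, paired with a C/EBP family partner, at a composite element with the letters TGATGNAA. These letters were looked for on both strands from 250 bases before to 50 bases after the RefSeq start of each gene (build GRCm38.p6, which may not be the build behind the counts). They were found for 4 of the 10 genes, and for 1219 of 27025 genes with such a sequence (4.51%). A list of 20 other ATF4 partners and targets had a sequence for 16 genes, of which 5 (31.2%) held them. The 4 matches are shown in their 30-base surroundings, so that the element can be set beside the levels of these genes given further on. Each line reads 5′ to 3′ on the strand of the gene, with the match in capitals:
Trib3, chr2:152344028-152344057, minus strand: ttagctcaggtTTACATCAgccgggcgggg
Asns, chr6:7693214-7693243, minus strand: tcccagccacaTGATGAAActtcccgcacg
Chac1, chr2:119351038-119351067, plus strand: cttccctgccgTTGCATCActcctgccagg
Fgf21, chr7:45615611-45615640, minus strand: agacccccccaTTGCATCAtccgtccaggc
In *Asns* the element lay on the strand of the gene, 23 bases before the start. In the other three it lay on the opposite strand, starting 15 bases after the start in *Trib3*, 193 before in *Chac1* and 139 before in *Fgf21*. *Chac1* and *Fgf21* shared the same letters, TGATGCAA. The windows of *Atf4*, *Ddit3*, *Gdf15*, *Phgdh*, *Psat1* and *Mthfd2* did not hold these letters. A match is a stretch of sequence and no measure of binding.

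Total counts were 10424334 to 14372011 per heart, and 3 counts, the number taken as the detection floor, corresponded to 0.191 to 0.300 CPM, the read count scaled to a common library total. Levels below are CPM after scaling by the trimmed mean of M values (TMM). *Fabp3* itself read 2120 to 3060 CPM in the 6 WT hearts and 1000 to 1140 CPM in the 6 F3-KO hearts. *Nppb*, the natriuretic peptide gene used as a sign of overload, was 95 to 311 CPM after sham and 411 to 776 CPM after TAC, and *Acta1*, a fetal actin gene, was 44.9 to 753 CPM after sham and 762 to 3570 CPM after TAC. The natriuretic peptide gene *Nppa* (37.1 to 339 CPM after sham, 143 to 3840 CPM after TAC) and the slow myosin gene *Myh7* (290 to 9180 CPM after sham, 174 to 23100 CPM after TAC) overlapped between the surgeries. The 5 heart muscle markers summed to 36900 to 47100 CPM in F3-KO TAC hearts, below all F3-KO sham hearts (59000 to 68300 CPM) and all WT TAC hearts (48300 to 73200 CPM), and to 40400 to 61600 CPM in WT sham hearts. *Myh6* had the largest part, at 14400 to 21200 CPM in F3-KO TAC and 31900 to 34500 CPM in F3-KO sham hearts. *Tnni3* was also lower without overlap (2320 to 4000 against 4760 to 6340 CPM). *Tnnt2*, *Actc1* and *Ryr2* overlapped between these groups, *Ryr2* at 1140 to 1580 against 1280 to 1450 CPM. Some hearts stood apart. All 5 hepatocyte markers, *Alb* among them, were above 0 in F3-KO TAC replicates 2 and 3, with sums of 69.5 and 122 CPM against 0.249 to 0.863 CPM in the other 10 hearts. The fibrosis gene *Postn* read 537, 1220 and 40.7 CPM in the F3-KO TAC hearts and 361, 39.0 and 24.4 CPM in the WT TAC hearts, so that F3-KO TAC replicate 3 and WT TAC replicates 2 and 3 were within the 16.2 to 63.7 CPM of the sham hearts.

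After TAC, the mRNAs of *Psat1* and *Mthfd2*, enzymes of serine synthesis and mitochondrial one-carbon metabolism, and of the hormone *Gdf15* had the highest fold changes among the 9 genes, whereas *Atf4*, *Ddit3* and *Chac1* had the values closest to 0 when averaged over the genotypes. None of the 9 passed an adjusted p of 0.05 in any of 7 comparisons, tested with edgeR's quasi-likelihood model and adjusted by Benjamini-Hochberg over 14094 genes. DESeq2 called 2 of them, *Psat1* and *Mthfd2*, in TAC against sham averaged over the genotypes, and 0 in the other 6 comparisons. The share of all genes that edgeR called was itself small. It was 0% for TAC against sham in WT hearts, 0% for TAC against sham in F3-KO hearts, 0.078% for TAC against sham averaged over the genotypes, 0.106% for F3-KO against WT after sham, 0.078% for F3-KO against WT after TAC, 0.412% for F3-KO against WT averaged over the surgeries and 0% for the interaction of genotype and surgery.

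**Figure D1:**
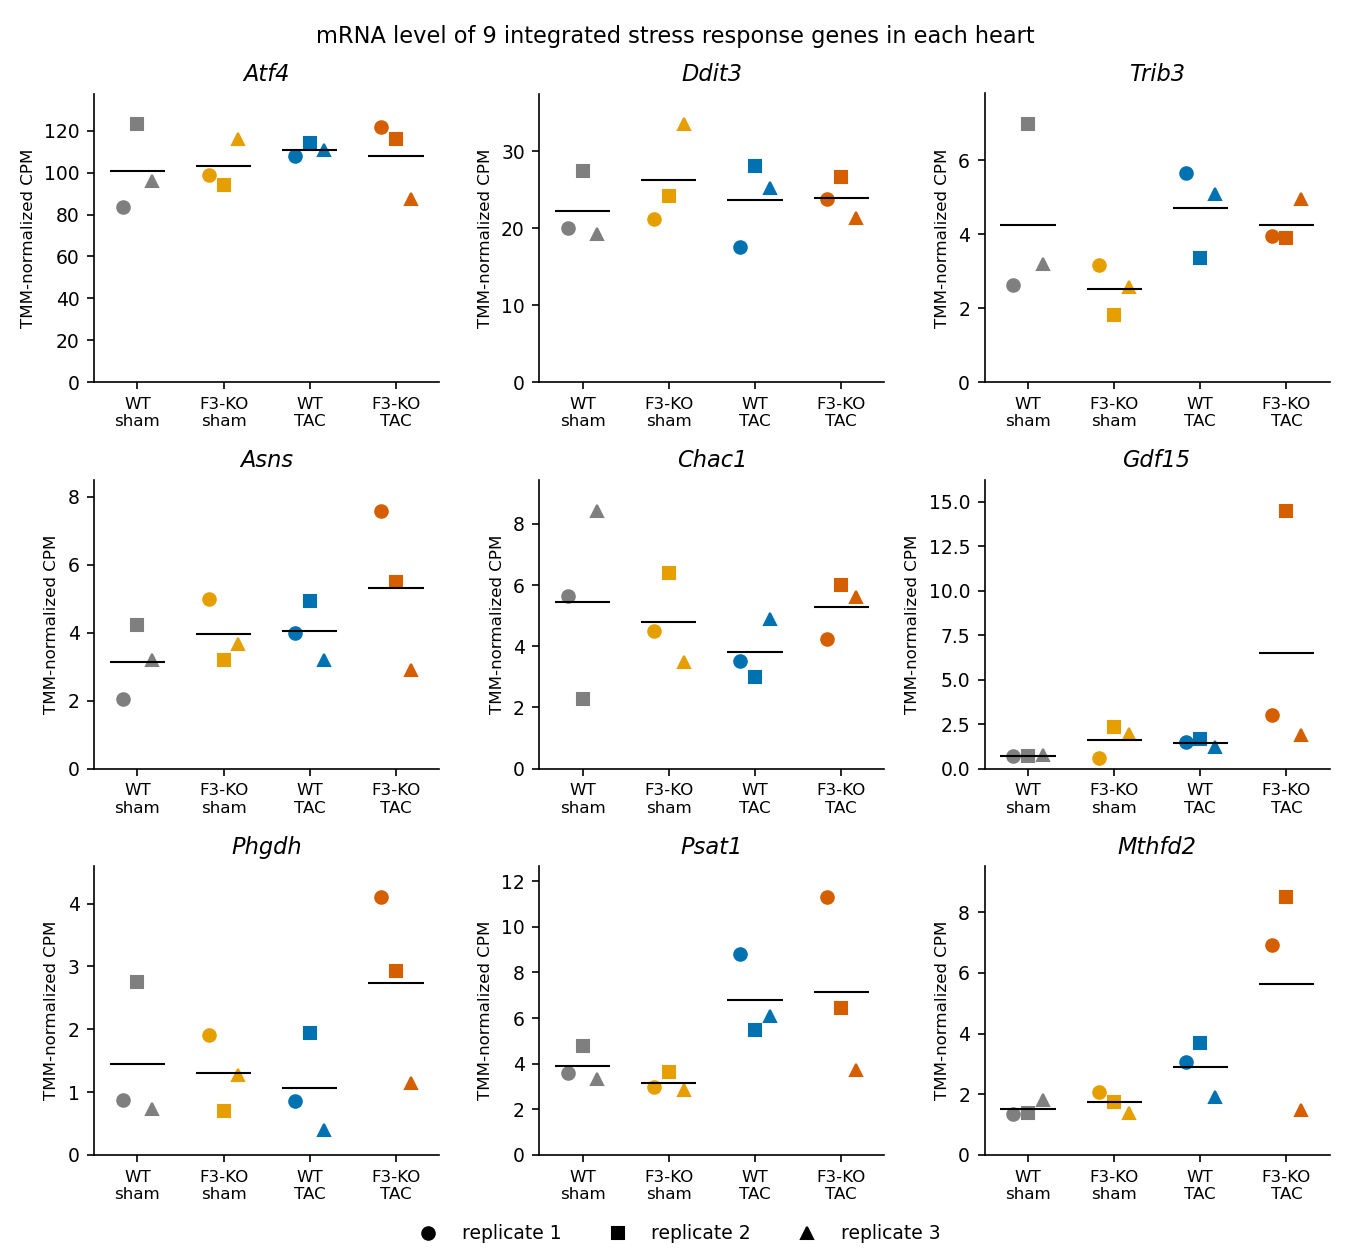
TMM-scaled CPM (y axes, linear, from 0) of the 9 tested genes in the 12 hearts, with 1 panel a gene, groups along the x axes, marker shape for the replicate and a black line for the group mean. *Psat1* and *Mthfd2* are higher in WT TAC than in WT sham hearts without overlap, *Mthfd2* by a narrow margin (1.90 against 1.80 CPM). The *Gdf15* mean of the F3-KO TAC group is carried by 1 heart at 14.5 CPM.

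Per kilobase of exon (GENCODE lengths, not necessarily those behind the counts), *Atf4* was the most abundant of the 10 in WT sham hearts, at 58.4 ± 11.7 CPM per kb (SD, n = 3), followed by *Ddit3* at 25 ± 5.14. Both ranges stood clear of the rest and of each other. *Chac1* (3.33 ± 1.88), *Trib3* (2.10 ± 1.17), *Asns* (1.46 ± 0.504) and *Psat1* (1.33 ± 0.259 CPM per kb) followed, each overlapping its neighbours in this order. *Phgdh* (0.768 ± 0.594) overlapped both *Psat1* above it and *Mthfd2* (0.724 ± 0.120) below it, *Gdf15* (0.387 ± 0.0170 CPM per kb) lay below *Mthfd2* without overlap, and *Fgf21* had no counts. The order was similar in F3-KO TAC hearts at its upper end, with *Atf4* at 62.9 ± 10.7 and *Ddit3* at 26.9 ± 2.98 CPM per kb. There *Gdf15*, at 3.50 ± 3.76 CPM per kb, overlapped every gene from *Chac1* (3.23 ± 0.561) down to *Phgdh* (1.44 ± 0.785).

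Among the regulators, *Atf4*, which encodes the effector of the pathway, read 83.6, 123 and 95.8 CPM in WT sham hearts, 98.8, 93.9 and 116 CPM in F3-KO sham hearts, 108, 114 and 111 CPM in WT TAC hearts, and 122, 116 and 87.4 CPM in F3-KO TAC hearts. All 4 groups overlapped, and the highest of the 12 hearts was a WT sham heart. Averaged over the genotypes, the log2 fold change of *Atf4* after TAC was 0.11 ± 0.115 (SE; 95% interval -0.14 to 0.36; adjusted p = 0.648). With 861 to 1817 counts per heart *Atf4* was the best counted of the genes, and the interval of this average held no change beyond 1.28-fold. In WT hearts alone the interval reached 1.41-fold. Without WT sham replicate 2, the highest heart, the average was 0.19 (adjusted p = 0.345).

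*Ddit3* encodes CHOP, the partner of ATF4 that is linked to cell death under lasting stress. Its mRNA was 20.0, 27.5 and 19.2 CPM in WT sham, 21.2, 24.2 and 33.5 CPM in F3-KO sham, 17.6, 28.1 and 25.3 CPM in WT TAC and 23.8, 26.7 and 21.4 CPM in F3-KO TAC hearts. The groups overlapped throughout. The TAC difference averaged over the genotypes was -0.02 ± 0.154 on the log2 scale (adjusted p = 0.959). *Ddit3* was the only 1 of the 10 genes with estimated counts that were not whole, and it overlaps *Mars1* and *Mbd6* in RefSeq, so reads may have been shared and its level is uncertain.

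*Trib3* encodes a pseudokinase that ATF4 and CHOP induce and that feeds back on them. It was at 2.62, 6.97 and 3.19 CPM in WT sham hearts, at 3.16, 1.82 and 2.57 CPM in F3-KO sham hearts, at 5.65, 3.35 and 5.10 CPM in WT TAC hearts and at 3.95, 3.89 and 4.95 CPM in F3-KO TAC hearts. WT sham replicate 2 was the highest of all hearts for *Trib3*, as it was for *Atf4*, while every F3-KO TAC heart lay above every F3-KO sham heart. The log2 fold change after TAC averaged over the genotypes was 0.45 ± 0.266 (adjusted p = 0.396), and it was 0.72 without WT sham replicate 2.

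*Chac1* encodes an enzyme that degrades glutathione and is induced strongly by ATF4 in cultured cells. Its levels were 5.63, 2.29 and 8.43 CPM in WT sham, 4.49, 6.40 and 3.48 CPM in F3-KO sham, 3.53, 2.99 and 4.90 CPM in WT TAC and 4.25, 6.00 and 5.61 CPM in F3-KO TAC hearts. The 3 WT sham hearts spanned all the others, and the highest value was among them. After TAC the log2 fold change was -0.19 ± 0.286 (adjusted p = 0.762), and leaving out 1 heart at a time moved it between -0.38 and 0.04.

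Among the amino acid and one-carbon enzymes, *Psat1*, whose product makes phosphoserine in the serine pathway, had the lowest p of the 9 genes for TAC against sham averaged over the genotypes. It read 3.59, 4.77 and 3.35 CPM in WT sham hearts, 2.99, 3.63 and 2.84 CPM in F3-KO sham hearts, 8.79, 5.46 and 6.10 CPM in WT TAC hearts, and 11.3, 6.44 and 3.71 CPM in F3-KO TAC hearts. TAC hearts of each genotype lay above all sham hearts of that genotype, although F3-KO TAC replicate 3 did so by a narrow margin. The log2 fold change was 0.80 ± 0.360 in WT hearts (adjusted p = 0.782), 1.18 ± 0.362 in F3-KO hearts (adjusted p = 0.182) and 0.99 ± 0.255 averaged over both (95% interval 0.43 to 1.55; adjusted p = 0.105). Without WT TAC replicate 1 the WT difference was 0.57, and without F3-KO TAC replicate 1 the F3-KO difference was 0.68.

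*Mthfd2* encodes the mitochondrial methylenetetrahydrofolate dehydrogenase, an enzyme scarce in normal adult tissue and a recurrent marker of mitochondrial stress. It was 1.36, 1.37 and 1.80 CPM in WT sham, 2.08, 1.73 and 1.37 CPM in F3-KO sham, 3.06, 3.70 and 1.90 CPM in WT TAC, and 6.91, 8.49 and 1.48 CPM in F3-KO TAC hearts. The WT groups did not overlap, but by a narrow margin. WT TAC replicate 3 was at 1.90 CPM (19 counts) and WT sham replicate 3 at 1.80 CPM (22 counts). In the F3-KO TAC group 2 hearts exceeded all the other hearts and replicate 3 sat within the sham range. The fold change was 0.93 ± 0.530 on the log2 scale in WT hearts (adjusted p = 0.802), 1.70 ± 0.519 in F3-KO hearts (adjusted p = 0.182) and 1.31 ± 0.370 averaged over both (95% interval 0.51 to 2.12; adjusted p = 0.125).

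*Phgdh* encodes the first enzyme of serine synthesis, upstream of PSAT1. It read 0.874, 2.75 and 0.736 CPM in WT sham, 1.91, 0.692 and 1.28 CPM in F3-KO sham, 0.863, 1.94 and 0.400 CPM in WT TAC and 4.10, 2.93 and 1.15 CPM in F3-KO TAC hearts, from as few as 4 counts. Although it is in the same pathway as *Psat1*, its WT TAC and WT sham hearts overlapped. The TAC difference averaged over the genotypes was 0.32 ± 0.488 on the log2 scale (adjusted p = 0.768) and ranged from -0.05 to 0.74 with 1 heart left out. *Phgdh* was 1.34 ± 0.685 higher in F3-KO than in WT hearts after TAC on the log2 scale, with an interval of -0.15 to 2.83 (adjusted p = 0.528), and this difference was 0.92 when F3-KO TAC replicate 1 was left out and 2.07 when WT TAC replicate 2 was.

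*Asns*, the asparagine synthetase gene whose promoter match is shown above, was at 2.04, 4.22 and 3.19 CPM in WT sham, 4.99, 3.20 and 3.67 CPM in F3-KO sham, 4, 4.93 and 3.20 CPM in WT TAC and 7.59, 5.49 and 2.89 CPM in F3-KO TAC hearts. Its groups overlapped, with F3-KO TAC replicates 1 and 2 highest of all and replicate 3 below every F3-KO sham heart. The log2 fold change after TAC averaged over the genotypes was 0.39 ± 0.264 (adjusted p = 0.459).

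Of the secreted factors, *Gdf15*, a stress cytokine that acts on the brainstem to curb feeding, was scarce and uneven. It read 0.680, 0.733 and 0.736 CPM in WT sham hearts (7 to 9 counts), 0.582, 2.34 and 1.92 CPM in F3-KO sham hearts, 1.49, 1.67 and 1.20 CPM in WT TAC hearts and 3.04, 14.5 and 1.90 CPM in F3-KO TAC hearts. WT TAC hearts exceeded WT sham hearts without overlap and F3-KO TAC hearts exceeded WT TAC hearts without overlap, but 1 heart, F3-KO TAC replicate 2 with 228 counts, was far above the other 11. Its log2 fold change after TAC was 1.01 ± 0.762 in WT hearts (adjusted p = 0.848), 2.01 ± 0.685 in F3-KO hearts (adjusted p = 0.195) and 1.51 ± 0.511 averaged over both (adjusted p = 0.171). The F3-KO hearts were 2.16 ± 0.691 above WT hearts after TAC (adjusted p = 0.454) and 1.65 ± 0.511 above them averaged over the surgeries (adjusted p = 0.275). Without F3-KO TAC replicate 2 the difference after TAC in F3-KO hearts was 0.60 (adjusted p = 0.748) and that between the genotypes after TAC was 0.74 (adjusted p = 0.854), and the averages over the genotypes and over the surgeries were 0.80 and 0.95.

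*Fgf21*, the hormone gene that mitochondrial stress induces in muscle, had 0 counts in all 6 sham hearts, which allows up to 0.245 to 0.291 CPM in each. After TAC it had 5, 0 and 0 counts in the WT hearts and 0, 2 and 2 counts in the F3-KO hearts. It was therefore seen in 3 of the 6 TAC hearts, at 0.392, 0.128 and 0.165 CPM, 1 of them above its heart's floor of 3 counts. Liver is the main source of *Fgf21*, and both F3-KO TAC hearts with counts of it were those with hepatocyte transcripts, whereas in WT TAC replicate 1, with 5 counts, the hepatocyte markers summed to 0.863 CPM. The part of those transcripts in the *Fgf21* counts was not tested.

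Most of the 9 genes had a log2 fold change above 0 after TAC. In WT hearts this held for 7 of the 9, with a median of 0.14 against 0.00 for all tested genes. In F3-KO hearts it was 8 of 9, with a median of 0.76 against 0.02, and averaged over the genotypes 7 of 9, with a median of 0.40 against 0.00. At an unadjusted p of 0.05, 1 of 9 was higher after TAC in WT hearts (*Psat1*; 3.68% of all genes), 3 of 9 in F3-KO hearts (*Gdf15*, *Psat1* and *Mthfd2*; 10.6% of all genes), and the same 3 averaged over the genotypes (11.3% of all genes). Groups did not overlap for 3 of 9 genes higher in WT TAC than WT sham hearts (*Gdf15*, *Psat1* and *Mthfd2*; 4.67% of all genes) and for 2 of 9 higher in F3-KO TAC than F3-KO sham hearts (*Trib3* and *Psat1*; 11.5%).

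**Figure D2:**
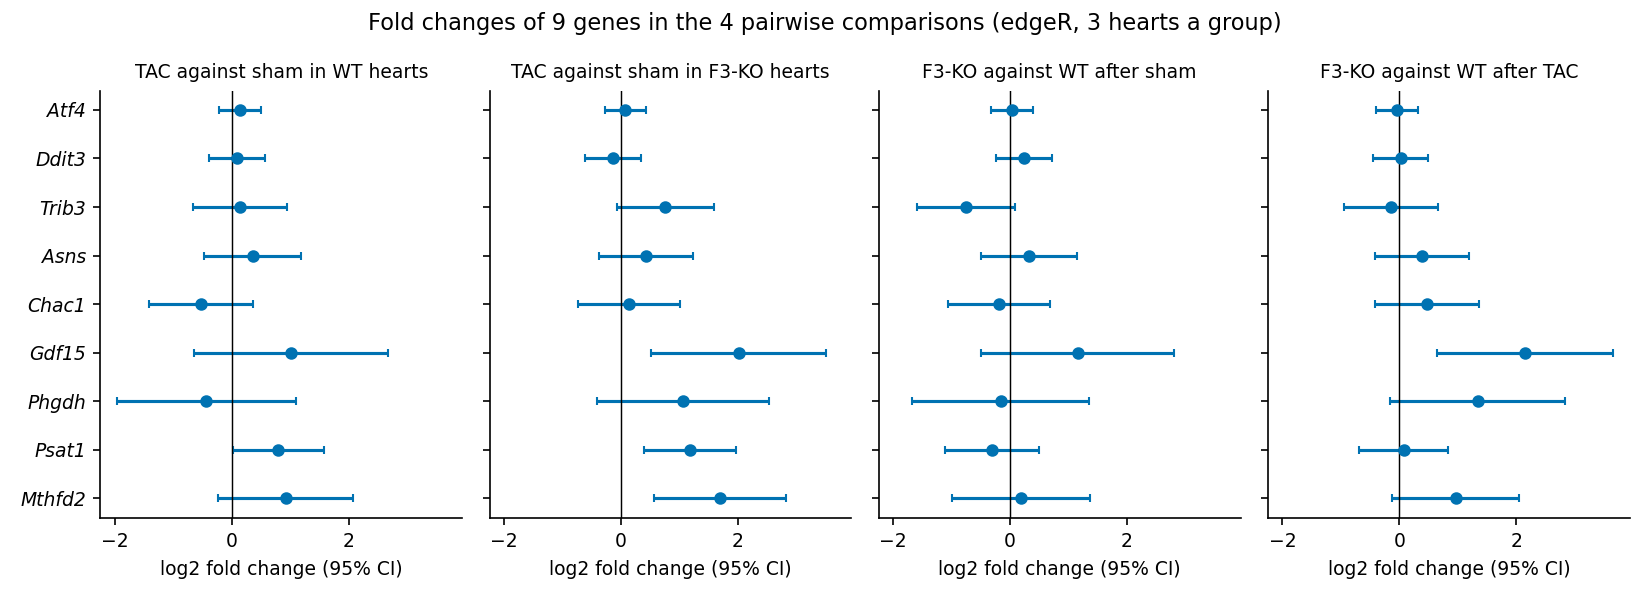
Log2 fold changes (x axes) of the 9 genes (y axis) with 95% intervals from edgeR in the 4 pairwise comparisons, 3 hearts a group, with a vertical line at no change. The intervals of *Gdf15*, *Psat1* and *Mthfd2* lie above 0 for TAC against sham in F3-KO hearts, as does that of *Gdf15* for F3-KO against WT after TAC, but none of these had an adjusted p under 0.05.

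The genotypes were compared within each surgery. After sham surgery 5 of the 9 genes were above 0 for F3-KO against WT, with a range from -0.76 (*Trib3*) to 1.15 (*Gdf15*) and adjusted p of 0.905 to 0.999, and 0 of 9 passed an unadjusted p of 0.05 (6.02% of all genes). No gene of the 9 had sham groups that did not overlap (13.7% of all genes in either direction). After TAC 7 of 9 were above 0, with a median of 0.40 against 0.02 for all genes, and *Gdf15* alone passed an unadjusted p of 0.05 (5.84% of all genes were higher so) and had groups that did not overlap (6.3%). *Mthfd2* was 0.96 ± 0.501 higher in F3-KO than WT hearts after TAC (adjusted p = 0.532), with an interval of -0.13 to 2.05, and 0.52 higher without F3-KO TAC replicate 2. Averaged over the surgeries *Gdf15* again was the 1 gene with an unadjusted p under 0.05 (5.37% of all genes were higher so). Whether TAC acted differently in the genotypes was tested by the interaction, for which the 9 log2 differences ran from -0.22 (*Ddit3*) to 1.5 (*Phgdh*), 0 passed an unadjusted p of 0.05 (4.48% of all genes) and the lowest adjusted p was 0.954. These comparisons share hearts and are not independent of each other.

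The F3-KO TAC hearts differed among themselves. F3-KO TAC replicate 1 was the highest of 12 hearts for 3 of the 9 genes and among the top 2 for 6, and replicate 2 was the highest for 2 and among the top 2 for 4. F3-KO TAC replicate 3 was never among the top 2. The median of the 9 genes relative to the WT sham mean was 1.28, 0.71 and -0.04 on the log2 scale in the 3 F3-KO TAC hearts and 0.38, 0.48 and 0.20 in the WT TAC hearts. *Nppb* did not single out replicate 3, being 626, 647 and 584 CPM in the F3-KO TAC hearts, nor did *Acta1*, at 3560, 3570 and 3040 CPM. The other overload genes set replicate 1 apart instead. *Nppa* read 153, 3840 and 1020 CPM and *Myh7* 174, 8070 and 23100 CPM in these hearts, so that the heart most often highest for the 9 genes was at sham level for *Nppa* and the lowest of all 12 for *Myh7*.

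**Figure D3:**
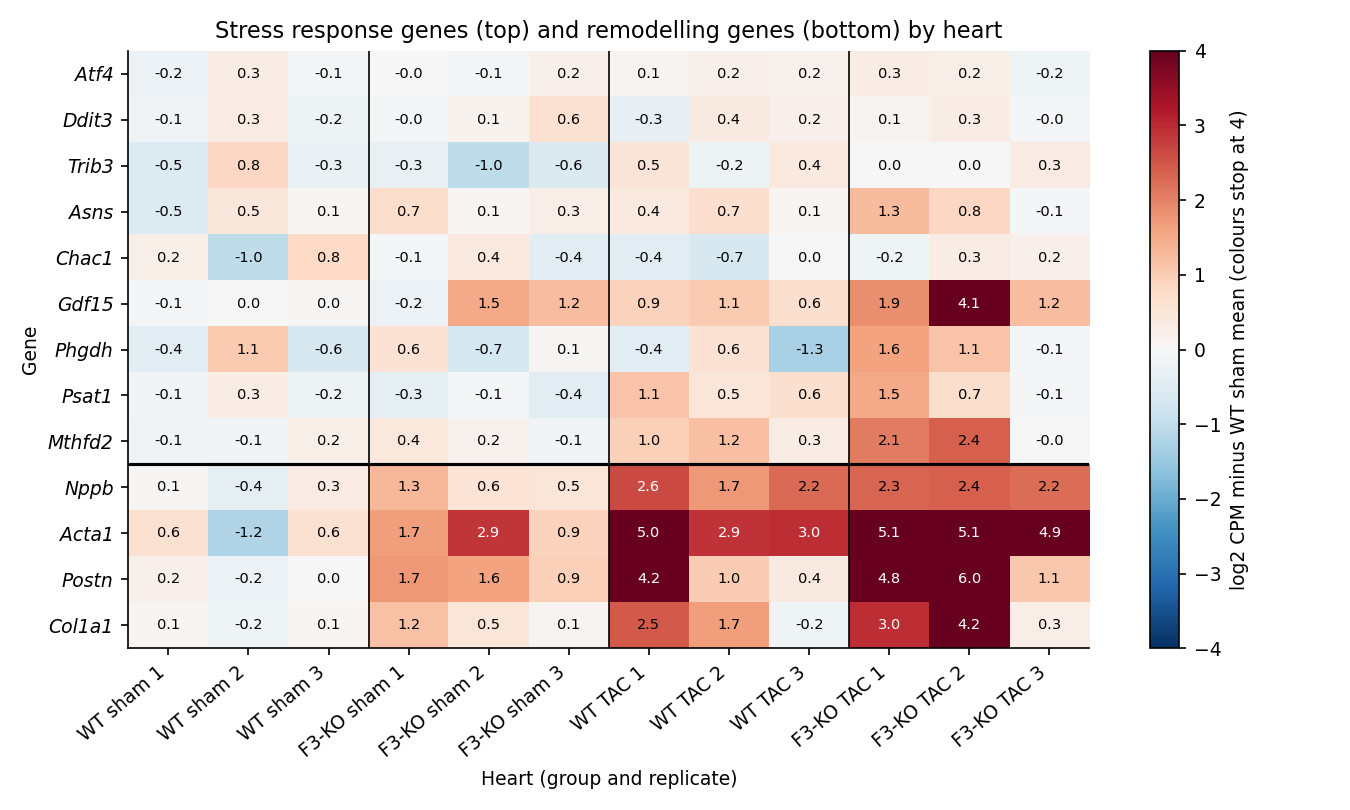
Log2 CPM of each gene (rows) in each heart (columns) minus the mean of the WT sham hearts, with colours that stop at 4, for the 9 stress response genes above the horizontal line and 4 remodelling genes below it. F3-KO TAC replicates 1 and 2 are high for *Mthfd2*, *Gdf15*, *Asns*, *Phgdh*, *Postn* and *Col1a1*, whereas replicate 3 is near or within the range of the sham hearts for all of these, with *Gdf15* and *Postn* at 1.2 and 1.1, and close to the others for *Nppb* and *Acta1*.

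Matrix genes moved with these hearts. The 5 fibroblast markers summed to 2520, 5030 and 1360 CPM in the F3-KO TAC hearts, against 630 to 1410 CPM in WT sham, 875 to 1160 CPM in F3-KO sham and 1110 to 2230 CPM in WT TAC hearts, and none of them was at 0. *Col1a1*, a main collagen gene, read 656, 1530 and 103 CPM in the F3-KO TAC hearts and 466, 270 and 75.2 CPM in the WT TAC hearts. The sum was carried by *Col1a1*, *Col1a2* and *Postn*, while the other fibroblast markers did not follow, *Pdgfra* being 51.1, 58.1 and 65.0 CPM and *Dcn* 730, 1080 and 1020 CPM in the F3-KO TAC hearts. The 5 macrophage markers summed to 360 to 523 CPM in F3-KO TAC, 251 to 289 CPM in F3-KO sham, 308 to 475 CPM in WT TAC and 173 to 367 CPM in WT sham hearts. The 5 erythroid markers summed to 380 to 902 CPM in F3-KO TAC hearts, below the 1070 to 4720 CPM of F3-KO sham hearts. They were 321 to 4250 CPM in WT TAC and 630 to 1760 CPM in WT sham hearts. The 5 endothelial markers overlapped, at 717 to 1290 CPM in F3-KO TAC and 857 to 1240 CPM in F3-KO sham hearts. The part of fibroblasts, macrophages, erythroid transcripts and the lower sum of heart muscle markers in the *Psat1*, *Mthfd2* and *Gdf15* differences was not tested. Adipocyte markers were near 0, with sums of 0 to 0.987 CPM.

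Whether these 3 genes passed changed with F3-KO TAC replicate 3 and with the tool. With that heart left out, *Psat1* (log2 fold change 1.48 ± 0.306, adjusted p = 0.0296), *Mthfd2* (2.14 ± 0.332, adjusted p = 0.0142) and *Gdf15* (2.45 ± 0.608, adjusted p = 0.0452) passed in TAC against sham in F3-KO hearts, where 3.65% of all genes were then called higher. The same 3 passed in the average over the genotypes (4.36% of all genes called higher). With all hearts, DESeq2 called *Psat1* (0.98 ± 0.286, adjusted p = 0.0233) and *Mthfd2* (1.31 ± 0.405, adjusted p = 0.0372) in that average, where it called 3.07% of genes higher. Leaving out both hearts with hepatocyte transcripts, a choice made after the data were seen, also left *Psat1* (1.32 ± 0.206, adjusted p = 0.0264) and *Mthfd2* (1.46 ± 0.276, adjusted p = 0.0335) called in the average by edgeR (1.93% of all genes called higher), with 1 F3-KO TAC heart that is assumed to vary like the other groups.

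**Figure D4:**
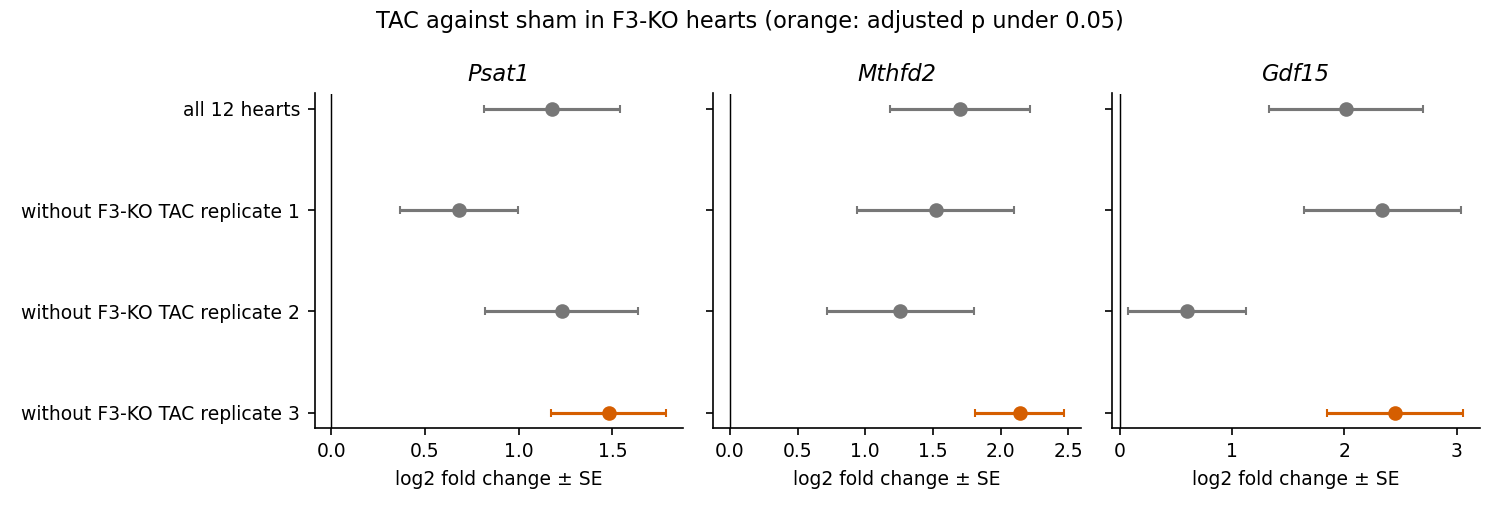
Log2 fold change ± SE (x axes) for TAC against sham in F3-KO hearts of *Psat1*, *Mthfd2* and *Gdf15*, with all 12 hearts and with each F3-KO TAC heart left out (y axis), orange where the adjusted p is under 0.05. All 3 genes are orange without replicate 3, and *Gdf15* drops to 0.60 without replicate 2.

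The pathway around these genes was described with 8 lists of related genes, 123 in the table and 118 tested. In TAC against sham averaged over the genotypes 0 of the 118 passed edgeR's adjusted p of 0.05 and DESeq2 called 1, *Eif2ak2*. At an unadjusted p of 0.05, 12 were higher and 10 lower, which is 18.6% of them against 17.8% of all genes. Counts of higher and lower genes in the single lists use the same p, at which 11.3% of all genes were higher in this comparison. The genes named from these lists were picked after their values were seen, none of them passed edgeR's adjusted p of 0.05, and their values are log2 fold changes in this comparison.

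Upstream, 17 genes of eIF2 kinases, phosphatases and the exchange factor eIF2B had 1 gene higher and 1 lower at an unadjusted p of 0.05, with a median of -0.05. The higher one was *Eif2ak2* (0.79 ± 0.213, adjusted p = 0.114), the kinase PKR that senses viral RNA. It read 54.0, 26.2 and 32.5 CPM in F3-KO TAC hearts, 29.2, 20.1 and 16.8 CPM in WT TAC hearts and 11.5 to 23.1 CPM in sham hearts. Of 20 further ATF4 partners and targets, 3 were higher and 0 lower, with a median of 0.09 against 0.00 for all genes. The median of this list after TAC was 0.20 in WT hearts (3 higher, 0 lower; 3.68% of all genes were higher so). In F3-KO hearts it was -0.06 (2 higher, 2 lower; 10.6% of all genes were higher so). For the interaction the median was -0.30 against 0.03 for all genes, with 1 higher and 4 lower (4.48% of all genes in either direction). There 0 of the 20 passed edgeR's adjusted p of 0.05 (lowest 0.954). Whether the genotypes differed in this list as a set was not tested. *Nupr1*, a small stress-induced chromatin protein, was at 1.02 ± 0.318 (adjusted p = 0.150), with 1 heart, F3-KO TAC replicate 2, at 24.0 CPM and the other TAC hearts at 5.64 to 8.63 CPM, and without that heart it was at 0.58.

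The 17 other enzymes of serine, glycine and one-carbon metabolism did not move together, with 3 higher, 3 lower and a median of -0.08. *Gldc*, which cleaves glycine in mitochondria, was at 1.23 ± 0.498 (adjusted p = 0.226) but never above 2.75 CPM. *Aldh1l2*, the mitochondrial formyltetrahydrofolate dehydrogenase and a known ATF4 target, was at -0.92 ± 0.281 (adjusted p = 0.145), the opposite direction to *Mthfd2*, with 3.55 to 7.84 CPM after TAC and 5.13 to 13.6 CPM after sham. *Shmt1*, the cytosolic serine hydroxymethyltransferase, differed by genotype more than by surgery. It read 6.31, 6.14 and 6.05 CPM in WT sham, 15.1, 15.7 and 13.5 CPM in F3-KO sham, 11.5, 7.84 and 8.00 CPM in WT TAC and 13.3, 8.61 and 19.4 CPM in F3-KO TAC hearts. Sham hearts of the genotypes did not overlap, and the log2 difference of F3-KO from WT was 1.26 ± 0.262 after sham (edgeR, adjusted p = 0.147; DESeq2, adjusted p = 0.00717) and 0.92 ± 0.183 averaged over the surgeries (edgeR, adjusted p = 0.0601; DESeq2, adjusted p = 0.00206). edgeR called both differences of *Shmt1* without F3-KO TAC replicate 2 (adjusted p = 0.0423 and 0.012) and without replicate 3 (0.0493 and 0.0441). It called the sham difference also in a model of only the 6 sham hearts (adjusted p = 0.0114). The sham difference itself stayed at 1.26 in these fits, which leave out no sham heart. Neither difference was called with any other single heart left out, the replicate block, the other scaling or the other filters. Without both replicates, which leaves 1 F3-KO TAC heart, the differences were 1.26 and 0.90.

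Of 10 amino acid transporters tested, 4 were higher and 1 lower, with a median of 0.09. *Slc1a4*, a carrier of serine and alanine, was at 0.65 ± 0.190 (adjusted p = 0.133), and *Slc7a5*, the large neutral amino acid exchanger LAT1, at 0.62 ± 0.209 (adjusted p = 0.172). *Slc7a1*, a carrier of arginine and lysine, was at -0.51 ± 0.185 (adjusted p = 0.189). The 19 cytosolic aminoacyl-tRNA synthetases, another group of ATF4 targets, had 0 higher and 0 lower, with a median of 0.04.

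On the mitochondrial side, 13 chaperones and proteases had 0 higher and 3 lower (17.8% of all genes in either direction). Their median was -0.19 against 0.00 for all genes, and the list was not tested as a set. The 3 lower genes were *Clpp* (-0.39 ± 0.132, adjusted p = 0.172), *Hspe1* (-0.34 ± 0.111, adjusted p = 0.165) and *Htra2* (-0.26 ± 0.0832, adjusted p = 0.158). The 4 tested receptors of the FGF21 and GDF15 hormones, *Ret*, *Fgfr1*, *Fgfr2* and *Fgfr3*, had 1 higher, *Fgfr1* at 0.26 ± 0.119 (adjusted p = 0.279). Of the same list, *Klb* and *Fgfr4* were counted too low to be tested and *Gfral* was not in the count table. Reception of the hormones was therefore assessed only in part.

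**Figure D5:**
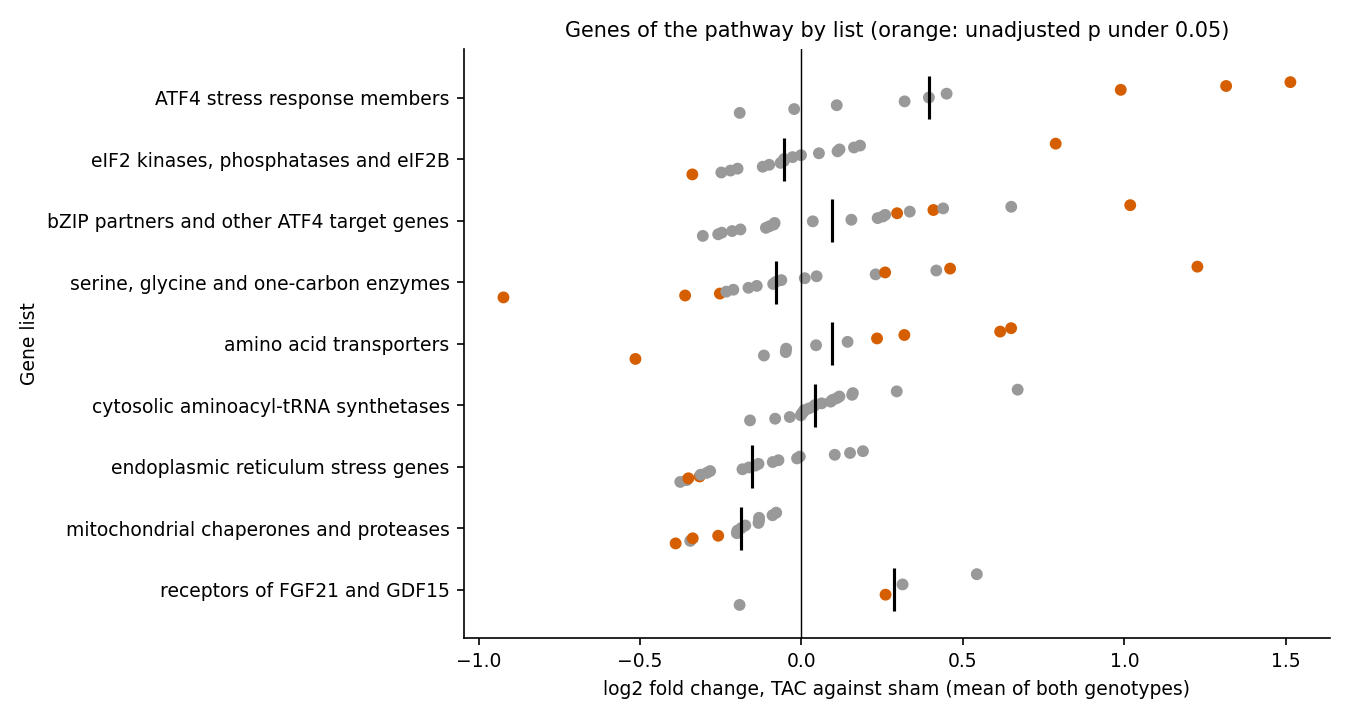
Log2 fold change for TAC against sham averaged over the genotypes (x axis) of the 9 genes and of the genes in 8 related lists (y axis), 1 point a gene, with the list's median as a black bar and orange for an unadjusted p under 0.05. *Gdf15*, *Mthfd2* and *Psat1* are the 3 orange points in the top row, the mitochondrial chaperones and proteases have 3 orange points below 0, and the aminoacyl-tRNA synthetases have none.

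The 18 genes of the endoplasmic reticulum stress list, chaperones and sensors of a neighbouring stress pathway, had 0 higher and 2 lower averaged over the genotypes. Within single comparisons 8 of the 18 were lower at an unadjusted p of 0.05 in WT TAC than in WT sham hearts (2.6% of all genes) and 8 were lower in F3-KO sham than in WT sham hearts (3.21% of all genes). Both comparisons use the same WT sham hearts. *Hspa5*, the chaperone BiP, read 499, 907 and 603 CPM in WT sham hearts, 383 to 494 CPM in F3-KO sham hearts, 349 to 504 CPM in WT TAC hearts and 297 to 562 CPM in F3-KO TAC hearts. Without WT sham replicate 2, the heart that was also highest for *Atf4* and *Trib3*, the counts were 2 and 1 of 18, and without WT TAC replicate 1 the first was also 2. They were 2 to 8 and 1 to 10 over all hearts left out in turn.

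Across the 12 hearts the 36 pairs of the 9 genes had a median Pearson r of 0.35 on log2 CPM, with 12 above 0.5 and 9 below 0, as a description over hearts that share groups. The highest were *Asns* with *Phgdh* (0.791) and *Asns* with *Mthfd2* (0.783), and the lowest was *Atf4* with *Chac1* (-0.642). *Psat1* and *Mthfd2* had r = 0.743, and *Gdf15* and *Mthfd2* 0.747. Among all tested genes, those most like *Mthfd2* over the 12 hearts were *Map1b* (0.973), *Pou2f2* (0.968) and *Spats2* (0.964), those most like *Gdf15* were *Tgfbr1* (0.966), *Srgap3* (0.935) and *Fibin* (0.932), and those most like *Asns* were *Actn4* (0.964) and *Coro1c* (0.956). *Phgdh* was most like *Bin1* (0.925), *Prr7* (0.92) and *Cd248* (0.918), and *Psat1* most like the unnamed gene BGIG10090_46636 (0.926), *Parpbp* (0.925) and *Tmem138* (0.924). For *Atf4* they were *Calhm2* (0.893), *Icam1* (0.887) and *Plaur* (0.874), for *Trib3* *Fgfr3* (0.946), *Fam227a* (0.888) and *Grrp1* (0.873), for *Ddit3* *Gm5820* (0.875), *Banp* (0.855) and *Swt1* (0.834), and for *Chac1* *Akap6* (0.864), *Nek9* (0.856) and *Cep78* (0.821).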

How the data were processed

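Trizol-extracted RNA of 12 hearts was sequenced at BGI. The authors cleaned the reads of adapters and poor quality with SOAPnuke, mapped them with HISAT2 (2.0.4) and STAR (2.3.0), and deposited estimated counts per gene, not normalized. The submitters' processing notes name 2 mouse builds without their role. The counting tool, its use of strand and the annotation are not given in the sources used here. Of all values 40.6% were not whole, so they were rounded, since the planned test takes whole counts. For 11 hearts the separate table held the same values as the joint table. That of WT sham replicate 2 breaks off, so the joint table was used for all.

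Samples were grouped by their labels, which describe the replicates as independent. In R 4.3.3, edgeR 4.0.16 (filterByExpr, minimum count 10, TMM factors of 0.931 to 1.09) fitted a quasi-likelihood model of the 4 groups, with 7 contrasts and Benjamini-Hochberg adjustment over 14094 genes. The common biological coefficient of variation was 0.232, and it was 0.152 (*Atf4*) to 0.569 (*Gdf15*) for the 9 genes. Replicates of a group differed by more than counting noise (chi-square per degree of freedom 9.84 to 79.0 over 12 pairs). The detection floor of 3 counts covers counting error only. Alternatives were DESeq2 1.42.0, its size factors in edgeR, other filters, the replicate number as a block, only the 6 libraries compared and each heart left out. The scripts were tested on simulated data. Likeness is Pearson's r of log2 CPM (prior count 2). Promoter windows are from RefSeq (GRCm38.p6) and all 10 genes matched. Genes named were the 10, *Fabp3*, overload genes, list genes past the threshold (there were none) and the 3 most like each gene, of which 1 is not reported here. Further list genes were named after their values were seen. Cell markers came from lists of 5 genes a cell type, of which 4 of the adipocyte list were in the table. The members and lists were chosen with earlier results of these data known.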

Additional observations from a re-analysis of the deposited data

How the results depend on the processing

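The number of the 9 genes called, 0 by edgeR in all 7 comparisons, ranged from 0 to 3 with 1 heart left out for TAC against sham in F3-KO hearts and from 0 to 3 for the average over the genotypes. The 3 were reached without F3-KO TAC replicate 3, and the cause was not tested. For that average it was 2 by DESeq2 and 2 without both hearts that hold hepatocyte transcripts, an alternative added after the data were seen. The log2 fold changes after TAC averaged over the genotypes turned sign with 1 heart left out for *Ddit3* (-0.0954 to 0.0821), *Chac1* (-0.376 to 0.041) and *Phgdh* (-0.0473 to 0.739), and the cause was not tested. Other scaling moved the median of all genes by at most 0.00914 on the log2 scale. Deviations from the group mean had a median r of 0.04 over 18 pairs of same-numbered hearts of different groups, with 4 pairs above 0.1. Over 36 pairs with different numbers the median was -0.03, with 2 above 0.1. Of the 12 hearts, 6 correlated best with their own number. These values do not settle whether the numbers pair some of the hearts. With the replicate number as a block 0 of the 9 genes were called, and *Psat1* was at 0.93 (adjusted p = 0.103) averaged over the genotypes. Without WT sham replicate 2, the *Trib3* difference was 0.72. Depth limits *Fgf21*, *Gdf15* and *Phgdh* most.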

Other observations

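With F3-KO TAC replicate 3 left out, genes of the 8 related lists were called by edgeR in TAC against sham in F3-KO hearts, and those named here were chosen after their values were seen. Higher were *Pycr1* (1.79 ± 0.415, adjusted p = 0.0390), the mitochondrial enzyme of proline synthesis, *Nupr1* (1.69 ± 0.440, adjusted p = 0.0496), and the thymidylate synthase gene *Tyms* (1.29 ± 0.275, adjusted p = 0.0332). Lower were *Herpud1* (-1.31 ± 0.290, adjusted p = 0.0347), a gene of endoplasmic reticulum protein degradation, and *Clpp* (-0.70 ± 0.183, adjusted p = 0.0497), a mitochondrial matrix protease. With all 12 hearts edgeR called none of these. DESeq2, with all hearts, called others in that comparison: *Eif2ak2* (1.05 ± 0.319, adjusted p = 0.0413), *Cebpb* (-0.60 ± 0.179, adjusted p = 0.0383) and *Slc7a1* (-0.91 ± 0.277, adjusted p = 0.0413). In WT hearts it called *Slc38a2*, a glutamine carrier and ATF4 target (0.67 ± 0.169, adjusted p = 0.0461). The share of all genes that DESeq2 called in these comparisons is not given here. How many list genes it called therefore cannot be set beside that share. No explanation was tested for any of these.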
